A study of Rattus norvegicus with 20 samples.

Results

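RNA of the soleus, a calf muscle, was sequenced in Sprague-Dawley rats with or without an injury of the spinal cord at T2. The set described here holds 256 genes of 24613 in the deposited table, and of 13398 that passed the filter on low counts. Its genes stood higher in every swimming library than in any library of uninjured rats or of contused rats without exercise. The members were chosen by these measured values. A gene was kept when its mean over all libraries was at least 1 CPM (the count of a gene relative to the scaled size of its library), when all 4 swimming values lay above all 8 uninjured and contusion values, when the swimming mean was at least 1.5 times the contusion mean, and when the transection range overlapped the uninjured range. Levels in swimming, contusion and uninjured muscle, and the overlap of transection with uninjured muscle, are therefore descriptions of how the set was made. Walking in shallow water was the group that the conditions on ranges and on the ratio did not use. Its values entered only the mean over all libraries, the filter on low counts and the scaling.

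The 20 libraries fell into 5 groups of 4. Uninjured rats had no injury and no exercise and are labelled 11.5 weeks. Transected rats had a complete transection, no exercise, and were taken at 8.5 weeks after injury. Contused rats had a 25 g-cm contusion made with an impactor, no exercise, and were taken at 11.5 weeks. The swimming group (SWIM) and the walking group (SWW) had the same contusion, trained on 5 days a week for 10 weeks from 2.5 weeks after injury, and were taken at 13.5 weeks. All rats were kept in small cages from 4 days after surgery. Both exercise groups therefore differ from contusion alone by time after injury as well, and exercise and time cannot be told apart there, while swimming and walking share a time point. By the design text each library is 1 animal. Rats were housed 2 per cage, and cage mates are not marked in the labels. In whole muscle, fewer cells of a type and less RNA per cell cannot be told apart.

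As background, the soleus is rich in slow, fatigue-resistant fibres that hold posture against gravity, and its fibres lose mass and shift their gene expression when load or nerve activity falls. A complete transection removes all commands from the brain to the hind limbs, while a contusion spares part of the tracts. Swimming moves the limbs with the body carried by the water, and walking in shallow water adds contact of the paws with the ground. The table names genes by Ensembl identifier alone, and 0 of these identifiers could be paired with a symbol here. The members are therefore described by level, size and pattern over libraries, their roles and sequences are not given, and neither the labelled muscle nor other cell types could be checked by marker genes. For reference, 4 members are named by identifier: those with the highest swimming to contusion ratio and with the highest mean level, and, chosen after their values were seen, the pair with the lowest log2 change after transection among members that passed a test.

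The order of the conditions gave 11566 genes with a mean of at least 1 CPM, 617 of them with all swimming values above all uninjured and contusion values, 391 of these with a ratio of at least 1.5, and 256 after the condition on transection. Of the genes lost at the last step, 99 had a transection range wholly below the uninjured range and 36 wholly above it. Over all tested genes, 5.01% had all swimming values above the 8 others and 10.9% had a ratio of at least 1.5. The 3 members nearest to the limit had ratios of 1.502, 1.504 and 1.510, and the 3 genes just outside it, which met the other conditions, had 1.499, 1.495 and 1.494. In all, 133 genes met the other conditions and lay below the limit, so the limit falls within a continuous range.

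The members were mostly genes of modest abundance. Their mean level ran from 1.00 to 176 CPM with a median of 7.49, against a median of 15.2 CPM over all genes with a mean of at least 1 CPM. When these genes were divided into 10 classes of nearly equal size by mean level, 192 members, or 75%, fell in the 5 less abundant classes. Class 3, from 4.17 to 6.90 CPM, held 48 members or 4.15% of its genes, and class 10, the most abundant, held 3 or 0.259%. The median member had a mean of 164 counts in contusion libraries and 330 in swimming libraries. The lowest count of any member was 7 in a contusion library and 28 in a swimming library, so counting error is a part of the spread of the least abundant members.

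**Figure D1:**
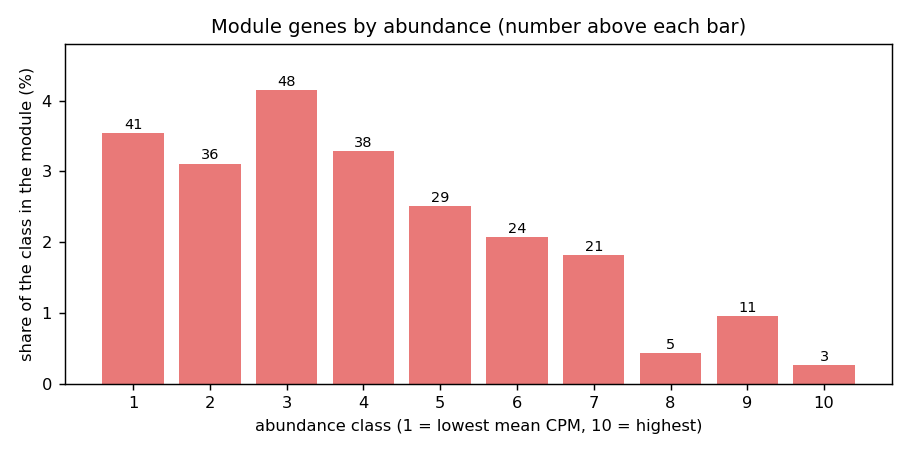
Share of each abundance class that belongs to the set (bars, in percent) and number of members (printed on top of the bars), over 10 classes of the genes with a mean of at least 1 CPM. The share is highest in class 3, with 48 members, and lowest in class 10, with 3.

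In swimming muscle the members stood at a median of 1.80 times the contusion mean, with a range of 1.502 to 4.62. The ratio was at least 2 in 65 members, at least 3 in 6 and over 4 in 1. Against uninjured muscle the median ratio was 1.88, with a range of 1.30 to 8.68. The swimming libraries differed among themselves. The median of the members' levels, relative to the contusion mean of each gene, was 1.61 in swimming library 1, 1.79 in library 2, 1.69 in library 3 and 1.94 in library 4. Library 4 was the highest of the group in 115 members, library 2 in 85, library 3 in 45 and library 1 in 11.

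Swimming library 2 set the largest ratios. In 20 members it was at least 1.5 times the next highest swimming library, against 1, 2 and 4 members for libraries 1, 3 and 4. In these 20 members its median level was 3.94 times the contusion mean, while libraries 1, 3 and 4 were at 1.82, 1.56 and 1.74. Without library 2 the highest ratio in the set was 2.82, 0 members reached 3, and 233 of the 256 still reached 1.5. ENSRNOG00000026226, the member with the highest ratio, shows this pattern. It was at 1.46, 11.7, 1.58 and 1.59 CPM in swimming libraries 1 to 4. In contusion libraries it was at 1.01, 0.768, 1.09 and 0.667 CPM, and in uninjured libraries at 0.567, 0.795, 0.300 and 0.694 CPM. Swimming libraries 1, 3 and 4 thus lay just above the contusion range and library 2 far above it, and the ratio of 4.62 became 1.75 without library 2.

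ENSRNOG00000002021, the most abundant member, was high in all 4 swimming libraries. It was at 257, 253, 278 and 347 CPM in swimming libraries 1 to 4, at 143, 142, 153 and 177 CPM in contusion libraries, and at 110, 129, 158 and 123 CPM in uninjured libraries. The ratio of swimming to contusion was 1.85, and 1.91 without swimming library 2. In walking libraries it was at 249, 158, 158 and 142 CPM. Walking library 1 lay just below the lowest swimming library, and the other 3 walking libraries lay within the contusion range. In transection libraries it was at 161, 151, 97.1 and 134 CPM, with library 3 below every uninjured value.

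**Figure D2:**
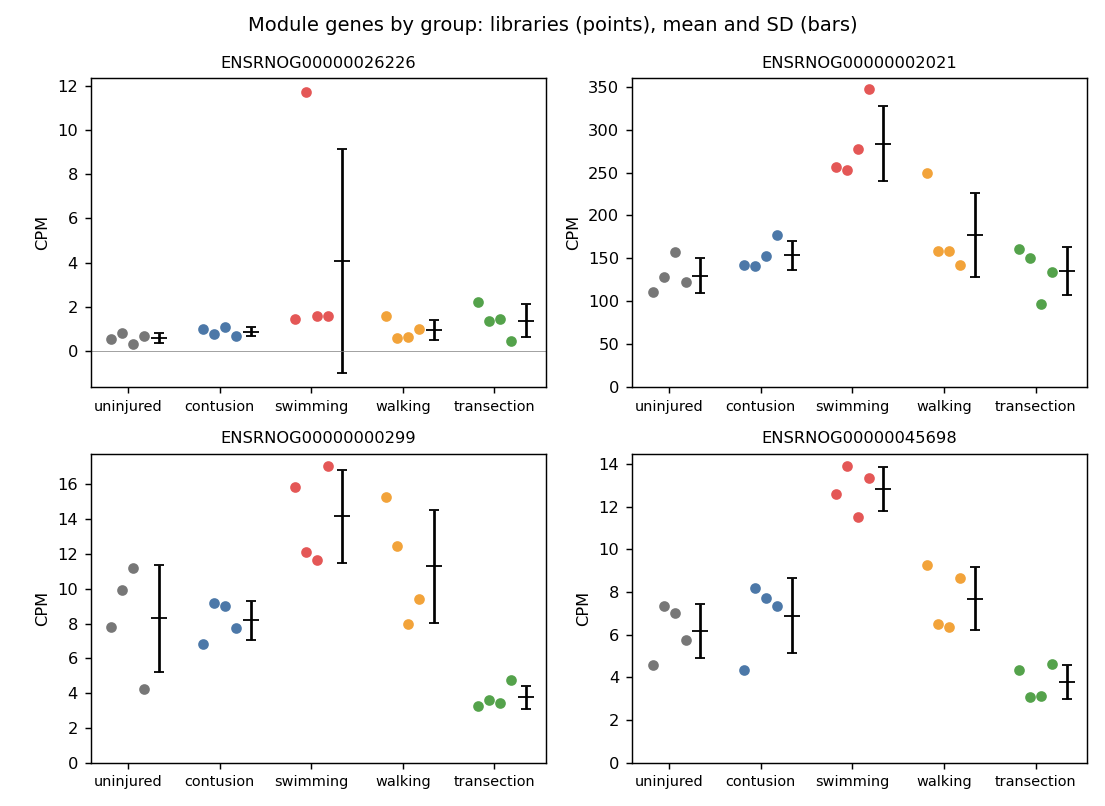
CPM of 4 members in each library (points, 4 per group) with the group mean and SD (bars). Swimming library 2 stands at 11.7 CPM in ENSRNOG00000026226, and walking library 1 stands at 249 CPM beside the swimming libraries in ENSRNOG00000002021. The transection mean is the lowest in ENSRNOG00000000299 and ENSRNOG00000045698, with single libraries overlapping other groups.

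One walking library carried the members at nearly the level of swimming. Relative to the contusion mean, the median of the members was 1.53 in walking library 1 and 1.05, 1.10 and 0.970 in libraries 2, 3 and 4. Walking library 1 lay above all 8 uninjured and contusion libraries in 220 of 256 members, or 85.9%, where 18.8% of all genes with a mean of at least 1 CPM did so. It reached at least the lowest swimming value in 145 members, against 12, 34 and 6 for walking libraries 2, 3 and 4. This count was not taken over all genes. The other walking libraries lay above the 8 libraries in 39, 76 and 34 members, or 15.2%, 29.7% and 13.3%, against 10.1%, 13.9% and 10.1% of all genes. The uninjured and contusion values of members were chosen to be low, which raises these shares in any library. Walking library 1 was the highest of its group in 78.9% of members and in 33.9% of all genes with a mean of at least 1 CPM.

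Walking library 1 also stood with the swimming libraries outside the set. Over the 11310 other genes with a mean of at least 1 CPM, its deviation from the mean of all libraries correlated at 0.438 with that of the mean of the swimming libraries and at -0.184 with that of the other walking libraries (Pearson, across genes of shared libraries, as a description). Walking libraries 2, 3 and 4 correlated at -0.100, 0.0651 and -0.171 with swimming. Each swimming library correlated at 0.119 to 0.471 with the mean of the other swimming libraries, and walking library 1 lay within this range. Walking library 1 was set against the mean of all 4 swimming libraries, so these values are not fully alike. The measure was not shown to separate the groups. Swimming library 1 correlated at 0.431 with the mean of the walking libraries, and walking library 4 at 0.0315 with the other walking libraries. Both of these means hold walking library 1, so the values do not tell how well the groups are separated. The library held 21922430 counts, 15578 genes with a count, a scaling factor of 1.16 and 44.3% of its counts in its 50 most abundant genes. Swimming libraries had factors of 1.06 to 1.18 and shares of 44.0 to 49.6%, and walking libraries 2 to 4 had factors of 0.948 to 1.06 and shares of 47.3 to 48.7%. The part of these measures in the members' levels was not tested. A name such as genes higher with swimming alone goes against the library labelled walking 1, and the set is called here by its rule. Whether that label is right cannot be told from the values, and the label was kept. Results on walking are given with it and without it. The reading without it was chosen after these values were seen, and it lowers the walking mean of most members.

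**Figure D3:**
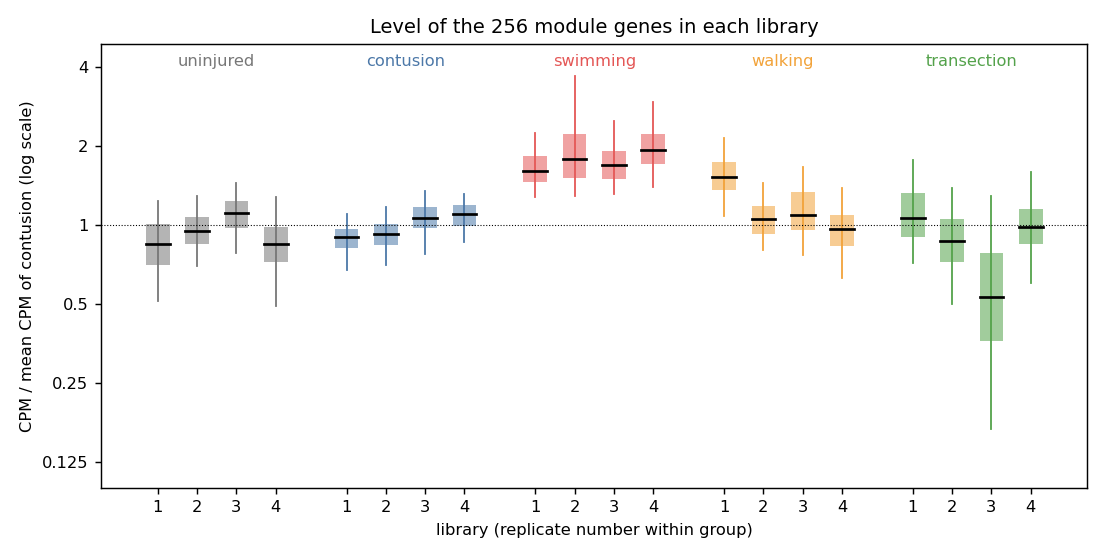
Level of the 256 members in each of the 20 libraries, as CPM relative to each gene's contusion mean on a log scale. Lines are medians, boxes reach from the lower to the upper quartile and whiskers reach from the 5th to the 95th percentile. Swimming medians run from 1.61 to 1.94, walking library 1 is at 1.53 beside 0.970 to 1.10 for the other walking libraries, and transection library 3 is at 0.533.

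**Figure D4:**
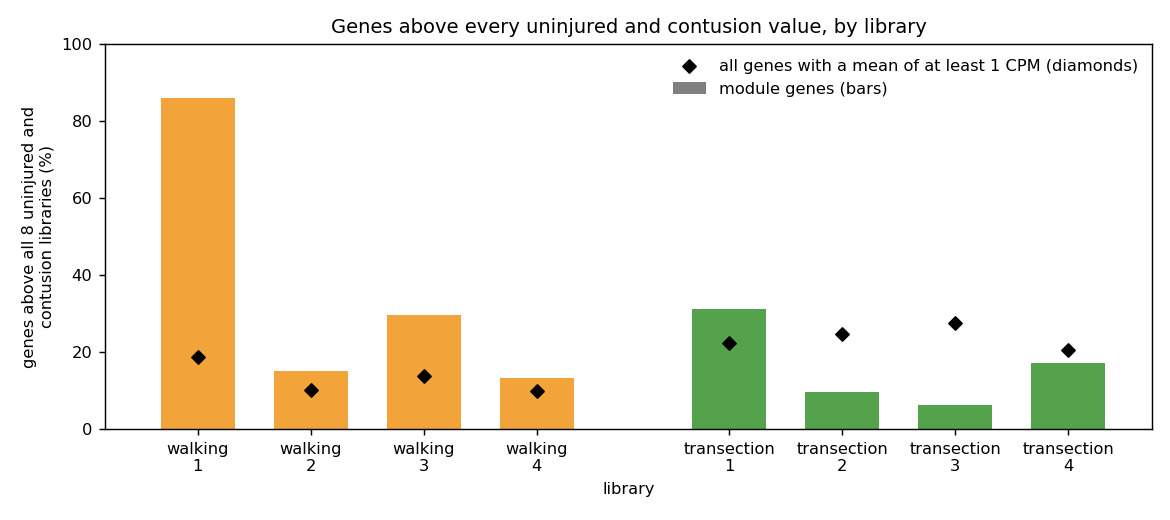
Share of members (bars) and of all genes with a mean of at least 1 CPM (diamonds) that lie above all 8 uninjured and contusion libraries, in each walking and transection library. Walking library 1 reaches 85.9% of members against 18.8% of genes, and transection library 3 reaches 6.25% against 27.5%.

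Walking was compared with contusion alone, which had the same injury without training. Its control libraries are among those that chose the members. The mean with walking was 1.17 times the contusion mean in the median member, with a range of 0.858 to 1.68, and above 1 in 237 of 256 members. Over all genes with a mean of at least 1 CPM the median ratio was 1.00. Without walking library 1 the median of the members was 1.04 and 162 members were above 1. A walking mean of at least 1.5 times contusion was reached by 9 of 256 members, or 3.52%, against 3.03% of all tested genes. The tested genes include some under the 1 CPM limit, which all members met. Of the 11566 genes that met this limit, 154 reached the ratio. Without walking library 1 it was reached by 7 members and by 206 of the 11566 genes. The rule held the contusion values of members low, which raises their counts here. All 4 walking values lay above all contusion values in 6 members (2.34%, against 1.04% of all tested genes). They lay above all contusion and all uninjured values in 3 members (1.17%, against 0.328%), and walking libraries 2, 3 and 4 did so in 5 members where 1.33% of tested genes did. The rule read with walking in the place of swimming found 5 genes in all, of which 0 were members. Without walking library 1 it found 20, of which 1 was a member. The rule was then applied anew with a library left out, which gave sets of 224 to 363 genes, not the same 256. Counts over all genes were not made for these sets, and leaving out a walking library eases the condition on all walking values. In them, the members with all walking values above all contusion and uninjured values numbered 3 to 17. They were 17 without walking library 4, 13 without walking library 2, 12 and 6 when contusion libraries 3 and 4 were dropped in turn, and 5 each without walking library 1 and uninjured library 3. The members with a walking mean of at least 1.5 times contusion numbered 7 to 27 in the same way. They were 27, 24 and 14 without contusion libraries 4, 3 and 2, 22, 14 and 20 without walking libraries 2, 3 and 4, and 16 each without swimming libraries 2 and 3.

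No member passed the test of walking against contusion. The quasi-likelihood test of edgeR, with p adjusted over all 13398 genes and a limit of 0.05, called 0 members higher and 0 lower, and likewise 0% of all genes in either direction. DESeq2 and voom called 0 members too. At an unadjusted p under 0.05, 14 members were higher and 0 lower (5.47% and 0%), against 1.16% and 2.02% of all genes. Without walking library 1, 0 members and 0% of genes were called, and 5 members (1.95%) had an unadjusted p under 0.05 with a higher level, against 2.30% of genes. The median log2 difference of the members was 0.23, against 0.01 over all genes, and 0.07 without walking library 1. The contusion values of the members were held low by the rule, and the median standard error of a member's log2 difference was 0.26. ENSRNOG00000002021 differed by 0.20 (SE 0.18), and by -6.7e-04 without walking library 1.

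Swimming and walking were compared directly, since a claim that a gene is higher with swimming only needs the test of this difference. The walking mean was below the swimming mean in all 256 members, with a median ratio of 0.656 and a range of 0.233 to 0.827. All swimming values lay above all walking values in 92 members (35.9%), where 3.08% of all tested genes showed this. Above walking libraries 2, 3 and 4 they lay in 214 members (83.6%, against 10.7%). The rule chose the swimming values to be high, which raises these shares, the test of this contrast and the counts of members called in it, with or without walking library 1. They are given as a description, and nothing about the members is read from how they stand against all genes. No member passed in the fit to all libraries: edgeR called 0 members, with a smallest adjusted p of 0.160, and 0% of all genes higher and 0.00746% lower with swimming. At an unadjusted p under 0.05, 180 members were higher with swimming (70.3%) and 0 lower, against 8.00% and 7.31% of all genes. DESeq2 called 25 of the 211 members to which it gave an adjusted p (11.8%, against 0.789% of genes), and voom with sample weights called 70 (27.3%, against 1.55%), all higher with swimming.

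The number of members that edgeR called changed with walking library 1, as it did with the tool. Walking library 1 was set apart after its high levels in these members were seen. Leaving it out lowers the walking mean of most members, so the calls without it are a description and not a further test. Without that library edgeR called 55 members higher with swimming and 0 lower (21.5% and 0%), against 1.45% and 0.741% of all 13625 genes then tested, and 212 members had an unadjusted p under 0.05 with a higher level, or 82.8% against 12.2%. The median log2 difference of the members was 0.61 with all libraries and 0.81 without it. Leaving out any other single swimming or walking library left 0 members called. In ENSRNOG00000002021 the log2 difference was 0.68 (SE 0.18, edgeR adjusted p = 0.161), and 0.91 without walking library 1 (edgeR adjusted p = 0.0192). With all libraries it passed by the other tools, at 0.69 with DESeq2 (adjusted p = 0.0337) and 0.75 with voom (adjusted p = 0.024). In ENSRNOG00000026226 it was 2.07 (SE 0.61, edgeR adjusted p = 0.185), and 0.69 without swimming library 2.

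**Figure D5:**
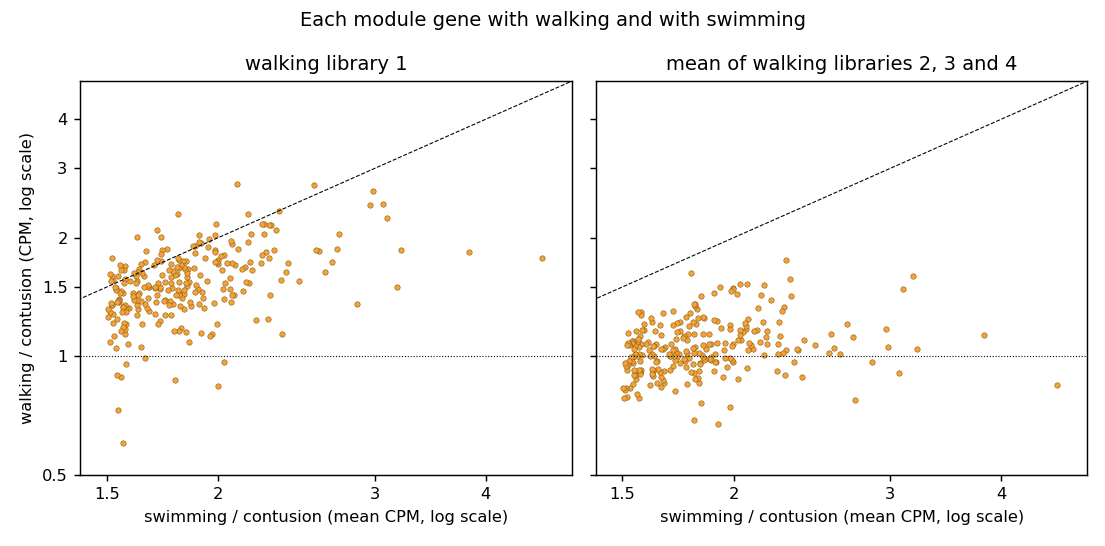
Each member's walking level against its swimming mean, both relative to the contusion mean on log scales, for walking library 1 (left) and for the mean of walking libraries 2, 3 and 4 (right). The dashed line marks equal levels and the dotted line the contusion mean. Members lie at a median of 1.53 on the left and 1.04 on the right.

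Against uninjured muscle, whose member values were also held low by the rule, walking was compared in the same way. The choice of members raises the differences here too. The median log2 difference of the members was 0.30, against 0.02 over all genes, and 243 members were above 0. Without walking library 1 the median was 0.13 and 179 were above 0. EdgeR called 0 members, with a smallest adjusted p of 0.0718, where 0.164% of genes were higher and 0.299% lower. At an unadjusted p under 0.05, 35 members were higher (13.7%) and 0 lower, against 6.44% and 7.19% of genes. DESeq2 called 3 members (1.17%, against 1.14% of genes) and voom 6 (2.34%, against 1.12%), all higher with walking. Without walking library 1, 0 members were called, with 0.0147% of genes higher and 0.0587% lower, and 14 members (5.47%) had an unadjusted p under 0.05 with a higher level, against 5.31%.

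Contused muscle without exercise held the members near the uninjured level. The rule held both groups below swimming, so their contrast is given as a description of the set, and nothing is read from its share against all genes. The ratio of means was 1.05 in the median member, with a range of 0.699 to 2.27, and above 1 in 170 of 256. The groups were interleaved: the members' medians were 0.847, 0.949, 1.11 and 0.849 in uninjured libraries 1 to 4 and 0.904, 0.929, 1.07 and 1.10 in contusion libraries 1 to 4. EdgeR called 0 members, as 0% of genes in either direction. At an unadjusted p under 0.05, 3 members (1.17%) were higher after contusion and 0 lower, against 5.04% and 4.76% of genes. DESeq2 called 0 members, where 0.303% of genes were higher and 0.490% lower, and voom called 0, where 0.0896% were higher and 0.0896% lower.

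Transected muscle varied from library to library in the level of the members, with library 3 far below the others. The transection mean was below the contusion mean in most members and above it in 88 of 256. The members' medians were 1.07, 0.874, 0.533 and 0.986 times the contusion mean in transection libraries 1 to 4. All 4 transection values lay below all swimming values in 202 members (78.9%, against 13.3% of tested genes), a share that the rule largely sets. Transection libraries 1 to 4 lay above all 8 uninjured and contusion libraries in 80, 25, 16 and 44 members, or 31.3%, 9.77%, 6.25% and 17.2%, against 22.4%, 24.7%, 27.5% and 20.6% of all genes with a mean of at least 1 CPM. Transection library 3 was the lowest of its group in 78.5% of members and in 35.3% of these genes. It lay below all uninjured libraries in 178 members (69.5%, against 36.7%), although the rule asked the group as a whole to overlap them. That library had 13837 genes with a count, where the other 19 had 15037 to 16103, and a scaling factor of 0.711. The part of these measures in its low member levels was not tested. Within the transection group the median coefficient of variation was 33.2% for members and 17.5% for all genes with a mean of at least 1 CPM. Without library 3 it was 17.3% and 12.6%. The condition that transection overlap uninjured muscle favours a wide transection range, and members were of lower abundance. The part of these in the spread was not tested.

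In the test of transection against contusion, which differ in time after injury as well, 9 members were lower and 1 was higher after transection (edgeR adjusted p below 0.05). These were 3.52% and 0.391% of members, against 9.26% and 6.07% of all genes. The condition that transection overlap uninjured muscle keeps genes that transection moves far out of the set, so these low shares follow in part from the rule. All transection values lay below all contusion values in 20 members (7.81%, against 12.5% of genes) and above them in 0 (against 9.24%). At an unadjusted p under 0.05, 34 members were lower (13.3%) and 6 higher (2.34%), against 16.0% and 13.9%. The median log2 difference of the members was -0.18, and -0.02 without transection library 3. Without that library 4 members were lower and 0 higher, against 7.85% and 3.24% of genes. When other libraries were left out, 4 were called without contusion library 4, 5 without the library numbered 2 of that group, and 19 without transection library 1. Shares over all genes were not taken for these fits. DESeq2 called 16 lower and 1 higher (6.25% and 0.391%, against 11.2% and 7.88% of genes), and voom called 6 in each direction (2.34%, against 12.3% lower and 9.67% higher).

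ENSRNOG00000000299 had the lowest log2 difference of the called members. It was at 3.27, 3.60, 3.44 and 4.75 CPM in transection libraries and at 6.83, 9.17, 9.03 and 7.75 CPM in contusion libraries, with no overlap (log2 difference -1.12, SE 0.25, edgeR adjusted p = 5.22e-03). In swimming libraries it was at 15.8, 12.1, 11.7 and 17.0 CPM, and in walking libraries at 15.3, 12.4, 8.00 and 9.43 CPM. Walking libraries 1 and 2 lay within the swimming range, library 3 lay within the contusion range and library 4 just above it.

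ENSRNOG00000045698 came next. It was at 4.37, 3.09, 3.13 and 4.61 CPM in transection libraries and at 4.33, 8.20, 7.69 and 7.33 CPM in contusion libraries (log2 difference -0.86, SE 0.21, edgeR adjusted p = 8.56e-03). Contusion library 1 lay within the transection range. Its swimming values were 12.6, 13.9, 11.5 and 13.3 CPM and its walking values 9.24, 6.52, 6.35 and 8.65 CPM, so that walking stayed below swimming in every library. The single member that was higher after transection was of low abundance, at 1.79 ± 0.719 CPM after transection and 0.766 ± 0.325 CPM after contusion (SD, n = 4 each; log2 difference 1.21, SE 0.40, edgeR adjusted p = 0.0445), with overlapping groups.

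The pattern over libraries was seen in members of different abundance. Divided into 3 parts by mean level (86, 85 and 85 genes), members were above all 8 uninjured and contusion values in walking library 1 in 79.1% of the least abundant part, 89.4% of the middle part and 89.4% of the most abundant part. They were below all uninjured values in transection library 3 in 67.4%, 67.1% and 74.1%. The median swimming ratio was 1.90, 1.74 and 1.72 in the same order. Of all genes with a mean of at least 1 CPM, 18.8% were above the 8 values in walking library 1. In transection library 3, 36.7% of them were below all uninjured values. Shares over all genes were not taken by abundance. The rule held uninjured and contusion values of members low, which raises the shares in walking library 1. Within groups the median coefficient of variation of members was 20.3% in uninjured, 16.4% in contusion, 17.6% in swimming and 26.1% in walking muscle, and 16.2% in walking muscle without library 1.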

How the data were processed

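The deposited values are whole-number counts per Ensembl gene, 1 column per library, not normalised. Libraries were stranded and poly-A selected, per the labels' protocols. The submitters' processing notes list FastQC 0.10.1, HTSeq and rn6. The aligner, annotation and strand setting of the counting are not given in the sources used here, so overlapping or near-identical genes may share counts. The gene table used for names (47357 genes) matched 0 identifiers, so the fixed gene lists could not be applied. Totals ran from 21165832 to 39729930 counts per library. Library pairs within a group differed by more than counting error (chi-square per degree of freedom 26.5 to 517 over 30 pairs), so none was taken for a copy.

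CPM were computed in edgeR 4.0.16 (R 4.3.3) with trimmed mean of M values scaling, after filterByExpr (minimum count 10). Differences across all 13398 genes were tested with its robust quasi-likelihood F test, all 20 libraries in a single fit (15 residual degrees of freedom), with Benjamini-Hochberg adjustment over all genes. SE is the size of the log2 difference divided by the square root of F. Alternatives used DESeq2 1.42.0 (Wald test) and voom with sample weights in limma 3.58.1, other scalings and filters, the replicate number as a block, and libraries left out. The test was checked on simulated counts. Named genes are the members with the highest swimming to contusion ratio and with the highest mean, plus 2 chosen after their values were seen. The members, tests and lists were chosen with earlier results of these data known. Each p-value sets a difference between group means against the spread between libraries within groups. Figures were drawn with matplotlib 3.10.9.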

Additional observations from a re-analysis of the deposited data

Results flagged for a closer look

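A single value far from the rest was looked for in 55 sets of 4 libraries (library measures, member counts, CPM of named members). It was found in 4, and chance alone gives about 1 in 20, or 2.75. This chance figure does not strictly apply to the list. Some member counts are fixed by the rule and could not be flagged. ENSRNOG00000026226 was also picked for a ratio that swimming library 2 set. Swimming library 2 held ENSRNOG00000026226 at 11.7 CPM, the next highest being 1.59. Walking library 1 held ENSRNOG00000002021 at 249 CPM, the next highest being 158. Uninjured library 4 had a factor for scaling of 0.982, below the 1.08 to 1.09 of its group. Walking library 4 held 36604027 counts, the next highest being 23665744. Tested directly, transection and contusion differed in 10 members, 9 lower and 1 higher after transection (3.52% and 0.391%), against 9.26% and 6.07% of all genes, and the rule keeps genes that transection moves far out of the set.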

How the results depend on the processing

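The number of members was 276 with median-of-ratios scaling (255 shared with the set), 260 without the low-count filter and 487 with library totals as the only scaling, of which 224 were shared. Library totals moved the median log2 ratio of swimming to contusion over all genes with a mean of at least 1 CPM from 0.00 to 0.18. A ratio of at least 2 left 65 members and a mean of at least 5 CPM left 154. Leaving out each library in turn gave 224 to 363, where the reading without walking library 1 was chosen after seeing the data. Without swimming library 2 and transection library 3 the rule found 287 genes, 205 of them shared. Members with all walking values above all contusion and uninjured values numbered 5 with library totals and 5 without those 2 libraries, and 3 to 17 with a library left out. Members with a walking mean of at least 1.5 times contusion numbered 36, 17 and 7 to 27 in the same order. Each of these counts is from the set found anew in that setting, of 487, 287 and 224 to 363 genes. For walking against contusion all alternatives called 0 members. For swimming against walking DESeq2 called 25 and voom 70, and the range with a library left out was 0 to 55. For walking against uninjured DESeq2 called 3, voom 6, and a fit to the compared groups 1. A fit without swimming library 2 and transection library 3 called 4, all higher with walking (1.56%, against 0.83% of genes). The rule held the uninjured values of members low, which raises this share. With a library left out the count was 0. For contusion against uninjured the fit to the compared groups and the fit without those 2 libraries called 1 each. In the latter this was 0.391%, against 0.133% of genes higher after contusion. For transection against contusion, where 10 were called, DESeq2 called 17 and library totals 19. The fit without the 2 libraries called 4, all lower (1.56%, against 9.43% of genes). With a library left out it was 4 to 19. Shares over all genes were not taken for the other scalings, the compared groups or most fits with a library left out. Those counts are not read as results about the members. ENSRNOG00000026226 turned from 0.13 to -0.14 with voom for walking against contusion, and to -0.20 without walking library 1, where ENSRNOG00000002021 went from 0.20 to -6.7e-04; these did not pass in any fit. With a library left out their values reached from -0.20 to 0.29 and from -6.7e-04 to 0.30. DESeq2 gave ENSRNOG00000026226 no adjusted p for swimming against walking. The cause of these shifts was not tested.

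The replicate number as a block called 1 member for walking against uninjured and 6 for transection against contusion, and 0 for the other comparisons. Shares over all genes were not taken for this fit. The numbers did not pair the libraries: same-numbered libraries of different groups correlated from -0.286 to 0.428 in their deviations from group means, above 0.1 in 8 of 40 pairs, and 5 of 20 libraries correlated best with their own number.

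Members near 1 CPM rest on few counts, the lowest being 7 in a contusion library, and the median SE of a member's log2 difference was 0.26, which limits what could be shown for single genes.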
